A study of Mus musculus with 7 samples.

Results

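Long 5′ untranslated regions (5′ UTRs) are described here by the ribosome footprints they carried in mouse epidermis with and without Pelota. A transcript was a member when its counted 5′ UTR was at least 200 nt long and both its 5′ UTR and its coding region had a value in all 4 footprint libraries. Where several rows shared a symbol, the row with the most coding footprints was kept. Of 13167 transcripts in the deposited table, 10658 had both regions listed in all 4 libraries after symbols were joined, and 3547 of them (33.3%) were members. The other 7111 had shorter 5′ UTRs. A further 794 long rows had no value in at least 1 library and were left out, and 12 rows were dropped for a repeated symbol.

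The 5′ UTR is the stretch of messenger RNA that the small ribosomal subunit scans before it reaches the start codon of the protein. A start codon within it can open an upstream reading frame, on which ribosomes initiate and which often lowers translation of the main frame; Atf4 and Atf5 of the integrated stress response are the textbook cases. Ribosome profiling sequences the RNA fragments that ribosomes protect. Pelota, encoded by Pelo, recognises ribosomes stalled on messenger RNA and helps to split them into subunits.

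The samples were primary mouse epidermis of 2 genotypes, wild type (WT) and transgenic knockout of Pelota (KO), with 2 footprint libraries each, called KO 1, KO 2, WT 1 and WT 2 after their labelled replicate numbers. The labels give no age, strain, sex, Cre driver or promoter, and do not say which cells lost the gene or whether replicates came from separate animals, and p-values thus measure no more than the spread among these 4 libraries, which may be technical. RNA-seq libraries that the labels name (2 of KO, 1 of WT) were not used here, and footprints were therefore not divided by messenger RNA. In bulk samples, fewer cells of a type and less RNA per cell cannot be told apart.

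Depth was low in 5′ UTRs. Members held 28583 to 49051 5′ UTR footprints per library, against 1181498 to 1645752 coding footprints, and the median member had 4 or 5 5′ UTR footprints per library. All 8 keratinocyte markers checked were listed, with 7.49% (KO 1), 7.03% (KO 2), 3.41% (WT 1) and 3.40% (WT 2) of the coding footprints. All 8 dermal fibroblast markers were listed too, at 4.16% and 4.74% in the KO libraries and 8.95% and 13.3% in the WT libraries, so footprints of fibroblast genes were present and made up a smaller share in KO. Macrophage and dendritic cell markers (7 of 8 listed) lay lower in KO too, at 0.248% and 0.274% against 0.581% and 0.585%, and melanocyte markers (5 of 6) higher, at 0.03% and 0.0157% against 0.00401% and 0.0054%. Adipocyte (6 of 6), T cell (4 of 6) and endothelial (5 of 5) markers were lower in both KO libraries and skeletal muscle markers (2 of 6) overlapped, all between 0.0129% and 0.184%. The part of these shifts in the results was not tested. None of the listed markers was at 0.

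To show what a long 5′ UTR can hold near its start, 3 named members are printed in which the first 50 bases after a single RefSeq transcription start contain an ATG with at least 12 bases on either side. The sequences come from RefSeq on GRCm38.p6, 5′ to 3′ on the transcript strand, with the ATG in capitals. The deposited transcript models are on mm9, and a RefSeq start need not be theirs.
Ifrd1: ctagagagaaacATGtatcgtttccgc
Btg1: tcggagctggaaATGcaactctcggga
Cnot6: gcggccgccgccATGatgcttgtttgc
They lie at chr12:40223144-40223170 (minus strand), chr10:96617014-96617040 (plus) and chr11:49712685-49712711 (minus). The A of the ATG is base 32, 26 and 24 of the transcript, counted from 1 at the RefSeq start. Of the 3547 members, 2641 (74.5%) matched a RefSeq start by symbol, and 1993 had a single start. An ATG, searched on the transcript strand only, stood in the first 50 bases of 493 of these 1993 (24.7%), of 32.2% of the matched shorter transcripts with a single start, and of 44.3% of all 32851 entries of the table. Shorter transcripts with such an ATG had a median counted 5′ UTR of 36 nt, against 99 nt without it. In them the 50 bases can take in the main start codon, so these shares do not compare upstream ATGs. Members with such an ATG had median density ratios (defined next) of 22.1%, 27.9%, 16.1% and 15.4% in KO 1, KO 2, WT 1 and WT 2, against 20.6%, 24.5%, 15.1% and 13.8% without it. A match is a description of these letters and no evidence of initiation there.

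The measure used throughout is the density ratio, which is 5′ UTR footprints per nt divided by coding footprints per nt of the same transcript, in percent. Values given in fours are for KO 1, KO 2, WT 1 and WT 2, in that order. Long 5′ UTRs carried fewer footprints per nt than coding regions, and relatively more in KO than in WT. Summed over the members, the density ratio was 19.4% in KO 1, 22.2% in KO 2, 12.4% in WT 1 and 11.4% in WT 2. Both KO libraries lay above both WT libraries. The KO mean was 20.8% ± 2.0 (SD, n = 2) and the WT mean 11.9% ± 0.673 (SD, n = 2), a 1.75-fold difference. The median member told the same order, with 19.9%, 24.1%, 14.4% and 13.3%, or 22% ± 2.97 in KO against 13.8% ± 0.787 in WT (SD, n = 2). With 2 libraries against 2, the two-sided exact permutation test gives p = 0.333 for both measures, which is the smallest it can give.

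**Figure D1:**
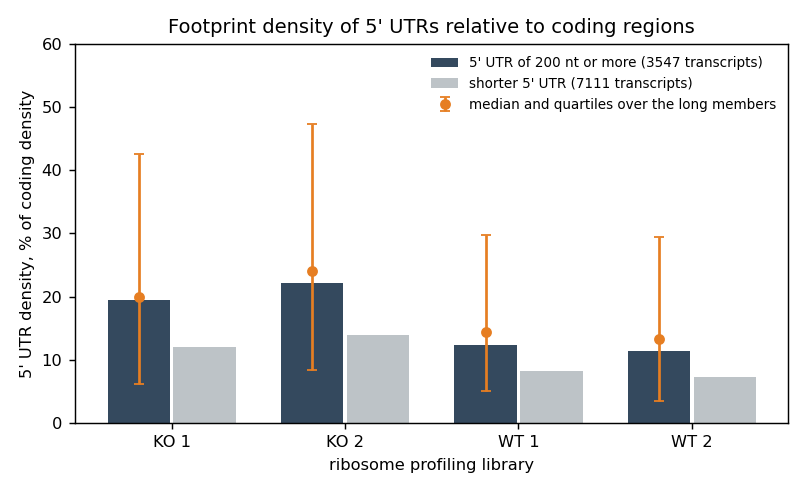
Bars give the summed 5′ UTR footprint density as a percentage of coding density in each library, for the 3547 transcripts with a long 5′ UTR and the 7111 with a shorter one; points and whiskers give the median and quartiles over the long members. Long members stand at 19.4% and 22.2% in KO and 12.4% and 11.4% in WT, above the shorter transcripts in each library.

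Counted as footprints rather than density, members had 3.62 and 4.15 5′ UTR footprints per 100 coding footprints in KO 1 and KO 2, and 2.31 and 2.13 in WT 1 and WT 2. Summed over the same members, 3′ UTR footprints went the other way, with 0.305 and 0.351 per 100 coding footprints in the KO libraries against 0.409 and 0.421 in WT. The genotypes did not overlap in either measure. Shorter transcripts also had fewer 3′ UTR footprints per 100 coding footprints in KO (mean 0.67) than in WT (0.764). This order did not hold in all members. Of 4 groups by coding density, the densest had more in KO (0.247 against 0.23) and the others fewer. The keratinocyte (0.131 against 0.0464) and fibroblast (0.0527 against 0.0194) markers among the members also had more in KO. A 5′ UTR denser than its own coding region was found in 5.69% and 6.71% of members in KO and 2.65% and 2.85% in WT. Members with no 5′ UTR footprint made up 14.6%, 12.7%, 13.5% and 18.0% of the libraries in the same order, and here the genotypes overlapped.

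The ratio was also compared within the markers of single cell types. The 3 keratinocyte markers among the members, Dsp, Sfn and Trp63, together had 0.598 and 0.795 5′ UTR footprints per 100 coding footprints in the KO libraries against 0.332 and 0.351 in WT, a 2.04-fold difference. That value rests on Dsp, a desmosome protein, with 295, 372, 128 and 101 of their 312, 386, 132 and 105 5′ UTR footprints. Over all 8 keratinocyte markers, short 5′ UTRs included, the values were 0.175 and 0.181 in KO and 0.130 and 0.131 in WT, a 1.37-fold difference. The 5 fibroblast markers among the members had 1.31 and 1.61 in KO and 0.628 and 0.410 in WT, a 2.81-fold difference. Over all 8 fibroblast markers the difference was 3.51-fold. The 2 endothelial markers among the members overlapped, with 2.70 and 3.58 in KO and 3.82 and 1.94 in WT. The 2 melanocyte markers and the 1 macrophage and dendritic cell marker were higher in both KO libraries. These had only 1 to 4 5′ UTR footprints in each WT library. Each list was chosen with results of these libraries known.

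Shorter 5′ UTRs showed the same direction in their sums. Their median density ratio was 0% in all 4 libraries, because 52.0% to 60.1% of them had no 5′ UTR footprint. Their summed density ratio was 12% and 13.9% in KO and 8.24% and 7.26% in WT, a 1.68-fold difference against 1.75-fold for the long ones. The long-to-shorter quotient was 1.61 and 1.59 in KO and 1.5 and 1.57 in WT, and its genotype difference of 0.06 on the log2 scale had p = 0.333 (two-sided exact permutation test, smallest possible). Long 5′ UTRs thus had the higher summed density ratio in 4 of 4 libraries (exact sign-flip test over libraries, two-sided p = 0.125, the smallest possible). The order was reversed close to the length limit, as given below. Their 5′ UTR density was lower than that of shorter ones in both KO libraries and higher in both WT libraries. Per kb of 5′ UTR, long members had 34.4 and 37.1 footprints in KO against 36.6 and 39.0 for shorter transcripts, and 28.8 and 21.6 in WT against 25.2 and 17.8. Their coding regions had 167 to 233 footprints per kb against 245 to 305 for the shorter ones. Members held 65.2% to 70.8% of all 5′ UTR footprints of the transcripts with both regions listed and 66.6% of their 5′ UTR nucleotides, but 27.5% to 33.5% of coding footprints.

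Members differed widely in length. The median 5′ UTR was 306 nt (quartiles 242.5 and 425 nt), 1853 reached 300 nt, 574 reached 500 nt and 69 reached 1000 nt. The median coding region was 1506 nt long, against 1161 nt in the shorter set. The summed density ratio was 17.8% ± 2.18 in KO and 9.56% ± 0.848 in WT for 200 to under 300 nt (1694 members). It was 23.9% ± 2.36 and 14.6% ± 0.781 for 300 to under 500 nt (1279 members), and 28.2% ± 2.83 and 17.4% ± 0.438 for 500 to under 1000 nt (505 members). For the 69 members of 1000 nt or more it was 26.2% ± 1.19 and 14.4% ± 0.485 (SD, n = 2 throughout). Each library thus had its lowest summed value in the shortest class, and KO lay above WT in each class. In the longest class, Hist1h3d and Hist2h3c1, histone H3 genes of uncertain values, gave much of the sum. They held 2839 and 1839 of its 6485 5′ UTR footprints in KO 1 and 1102 and 1268 of 4145 in WT 1. The place of that class in the order of sums therefore depends on them. Class medians were 22.9% in KO and 15.9% in WT, against 20.2% and 12.5% in the shortest class. At the length limit, 202 members of 200 to under 210 nt had median ratios of 14.1%, 17.0%, 10.9% and 10.6%. The 243 transcripts of 190 to under 200 nt, just outside, had 16.3%, 19.4%, 12.9% and 11.6%. Their summed ratios were 23.3%, 28.5%, 15.2% and 14.6%, against 17.9%, 21.5%, 9.15% and 6.62% just inside. At the limit the shorter transcripts thus had the higher ratio in each library by both measures.

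**Figure D2:**
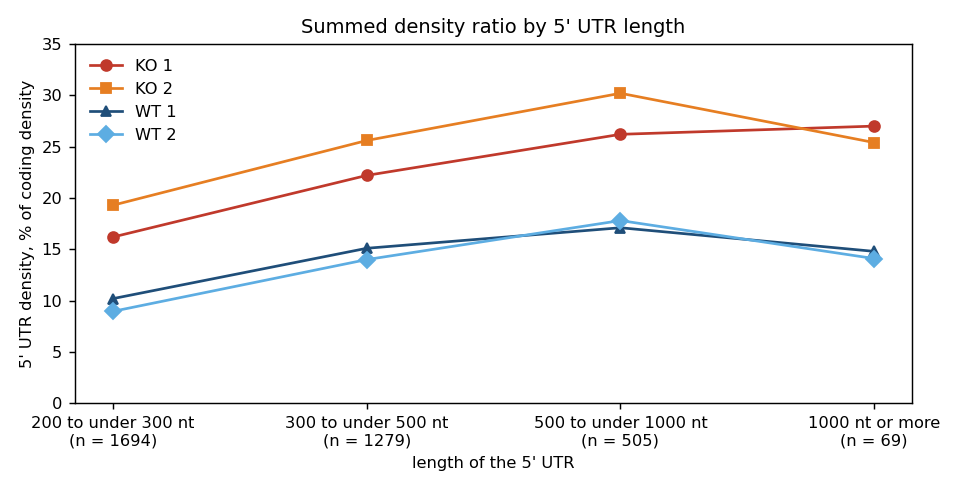
Lines give the summed 5′ UTR density as a percentage of coding density (vertical axis) for 4 classes of 5′ UTR length (horizontal axis), 1 line per library. All 4 libraries rise from the shortest class (9.56% WT mean, 17.8% KO mean) to the 500 to under 1000 nt class, and both KO lines lie above both WT lines. Points of the longest class depend on the histone H3 genes Hist1h3d and Hist2h3c1, whose values are uncertain.

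The density ratio was highest where coding density was low. The members were divided into 4 equal groups by coding density. In the least dense group the summed ratio was 48.1% ± 4.33 in KO and 32.6% ± 0.895 in WT, and in the densest group it was 14.0% ± 1.25 and 7.0% ± 0.460 (SD, n = 2). The ratio has coding density as its denominator, so ratio and density are not independent. The KO to WT quotient was 1.48, 1.51 and 1.48 in the less dense 3 groups and 2.0 in the densest.

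Of the members, 2509 had at least 1 5′ UTR footprint in every library, 36 had a 5′ UTR denser than the coding region in all 4, and 143 had none in any. Among the 221 with at least 20 5′ UTR footprints in every library, the mean density ratio ranged from 2.52% to 802% with a median of 34.4%. Over these 221 members the log2 density ratio correlated at r = 0.959 between the KO libraries, 0.957 between the WT libraries and 0.885 to 0.920 between genotypes, across genes that share coding denominators and so as a description only. In 167 of the 221 the unscaled ratio was higher in both KO libraries than in both WT libraries, and in 10 it was lower in both. At a lower limit of 10 counts in at least 2 libraries, the shares were 63.8% and 4.48% of all 1607 transcripts tested, of any 5′ UTR length. No share over all transcripts was taken at the limit of 20, so the counts are not read as particular to long 5′ UTRs.

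Among the members with at least 20 5′ UTR footprints in every library, Atf5, Ip6k2 and Atf4 had the 3 highest mean ratios. Atf5, a transcription factor translated through upstream frames under stress, had 51, 40, 41 and 30 footprints in its 287-nt 5′ UTR in KO 1, KO 2, WT 1 and WT 2, but 13, 11, 16 and 20 in its 792-nt coding region. Its density ratio was 1083%, 1003%, 707% and 414%, with both KO libraries above both WT libraries.

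Atf4, the central factor of the integrated stress response, had 98 and 109 5′ UTR footprints in the KO libraries against 40 and 21 in WT, with 47, 51, 39 and 50 coding footprints. Its density ratio was 677% and 694% in KO against 333% and 136% in WT. Relative to the typical 5′ UTR, its 5′ UTR footprints rose by a log2 change of 1.16 (SE 0.27, edgeR adjusted p = 0.00229). Its coding change, relative to the typical coding region, was 0.30 (SE 0.28, edgeR adjusted p = 0.423). The 5′ UTR call was lost without WT 2 (0.93, adjusted p = 0.0654), with DESeq2 (1.16, 0.0821) and with the replicate block (1.18, 0.0602). The edgeR change of its ratio relative to the typical transcript was 0.90 (SE 0.39), with an adjusted p of 0.253.

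Ifrd1, a transcriptional coregulator whose upstream frame ties its messenger RNA to decay and whose start window is printed above, had 146, 111, 40 and 23 5′ UTR footprints and 216, 213, 80 and 60 coding footprints. Both regions rose in KO, by log2 1.44 (SE 0.28, edgeR adjusted p = 0.00049) and 1.8 (SE 0.15, adjusted p = 2.73e-05). Its density ratio was 384%, 296%, 284% and 218%, and the change of that ratio by edgeR, -0.31 (SE 0.32), had an adjusted p of 0.665.

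The other 5 of the top 8 were Ip6k2, an inositol hexakisphosphate kinase (685% in both KO libraries, 476% and 325% in WT), Cflar, the caspase-8 inhibitor c-FLIP (436%, 292%, 205% and 266%), Tsc22d4 (289%, 315%, 152% and 165%), Atxn1, encoding ataxin-1 (229%, 224%, 298% and 210%), and Mllt4 (146%, 162%, 272% and 401%). KO and WT did not overlap for Ip6k2, Cflar and Tsc22d4, which were higher in KO, and for Mllt4, which was lower. They overlapped for Atxn1, whose 5′ UTR footprints fell by 1.39 (log2, SE 0.28, edgeR adjusted p = 0.000634).

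At the other end of the same order were messages of dermal matrix and lipid synthesis. With at least 20 5′ UTR footprints required in every library, a low ratio needs many coding footprints. Members with fewer 5′ UTR footprints were not ranked. Lum, a collagen-binding proteoglycan, had 84, 77, 59 and 49 5′ UTR footprints beside 5436 to 8507 coding footprints, a density ratio of 3.70%, 3.20%, 1.81% and 1.38%. Dcn, its relative decorin, had 8.46%, 8.67%, 3.94% and 2.54%. Elovl4, which elongates very long fatty acids of the skin barrier, had 6.10%, 6.72%, 2.61% and 2.89%. The fourth, Scd2, is described among the changed members. In all 4 the KO libraries lay above the WT libraries.

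**Figure D3:**
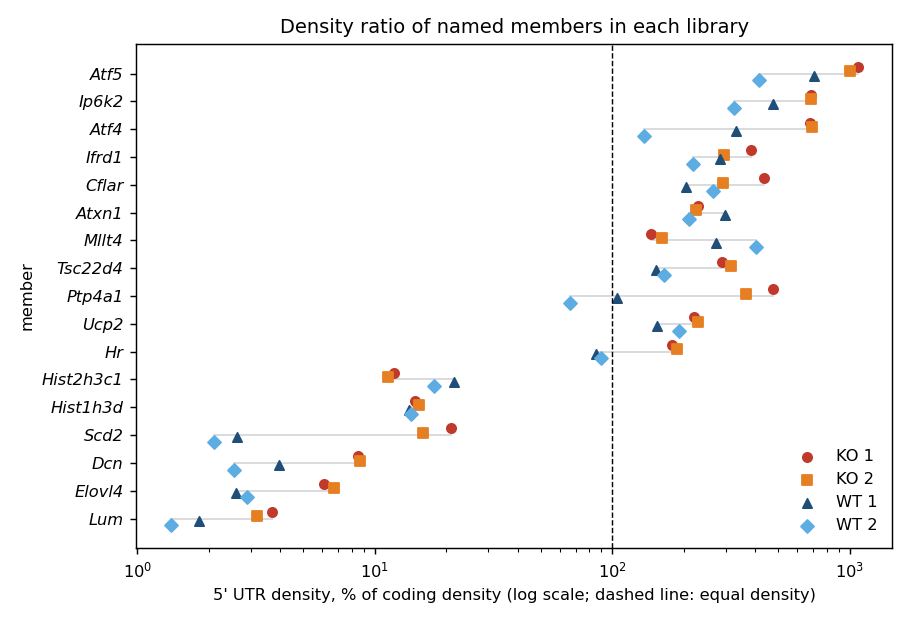
Points give the 5′ UTR density as a percentage of coding density (log scale) for 17 named members in each of the 4 libraries, and the dashed line marks equal density. Atf5, Atf4 and Ip6k2 lie right of the line in each library, Lum, Elovl4 and Dcn below 10%, and Mllt4 and Hist2h3c1 have their KO points left of their WT points.

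The 10 members with the most held 16.8% and 15.6% of the members' 5′ UTR footprints in KO and 12.4% and 12.5% in WT. Histone H3 genes led. Hist1h3d had 2839, 2613, 1102 and 966 footprints in a 1325-nt 5′ UTR, and Hist2h3c1 had 1839, 1599, 1268 and 888 in 1423 nt, each upstream of a counted coding length of 351 nt. Together they made up 10.3%, 8.59%, 6.23% and 6.49% of the members' 5′ UTR footprints. Without both, the summed KO to WT quotient was 1.70, and without the 10 it was 1.65.

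The density ratio of Hist1h3d was 14.7%, 15.3%, 13.9% and 14.2%. Its coding footprints rose by 1.48 (log2, SE 0.12, edgeR adjusted p = 2.81e-05). H3 genes are near-identical copies, and RefSeq places H2ac7 next to Hist1h3d (there H3c4) and H2ac18 next to Hist2h3c1 (there H3c14), so the values of both are uncertain. Another H3 gene, Hist1h3f, had no footprint in 427 nt of 5′ UTR in any library, beside 5411, 4778, 2252 and 1919 coding footprints.

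The remaining members with the most 5′ UTR footprints were Col3a1, Ucp2, Dcn and Igfbp5. Ucp2, a mitochondrial carrier with an upstream reading frame, had 705 and 676 5′ UTR footprints in the KO libraries against 243 and 248 in WT, and 745, 687, 366 and 302 coding footprints. Its density ratio was 220%, 229%, 154% and 191%. Its 5′ UTR footprints rose by 0.85 (log2, SE 0.31, edgeR adjusted p = 0.045), a call lost without KO 1 (0.92, adjusted p = 0.055), WT 1 (0.54, 0.56) or WT 2 (1.07, 0.19), while its coding footprints rose by 1.27 (SE 0.12, adjusted p = 4.9e-05). Col3a1, a fibrillar collagen of the dermis, had 786, 1060, 681 and 433 5′ UTR footprints beside 60866 to 113778 coding footprints, a density ratio of 26.7%, 37.0%, 13.3% and 8.09%. Igfbp5, which binds insulin-like growth factors, had 145, 307, 328 and 287, and a density ratio of 15.4%, 18.6%, 6.25% and 7.70%.

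Among the 143 members with no 5′ UTR footprint, Hist1h3f and Trp63 had the most coding footprints; both are named after their values were seen. Trp63, the p63 factor of the basal epidermis, had 0 footprints in 519 nt beside 1437 to 1863 coding footprints per library. A count of 0 allows up to 3 footprints per library, or a density ratio of up to 0.798% in WT 2 and less in the others, for counting error only. Trp63 is known to use alternative starts, and whether the single listed model is the one used in these cells was not tested. The longest 5′ UTRs were annotated for Pcdhb22, a protocadherin (4823 nt, density ratio 54.6%, 53.6%, 25.6% and 36.2%), and Ttc30a1, a cilium transport protein (3795 nt, 58.1%, 54.0%, 62.6% and 58.3%). Both have close paralogs, so their values are uncertain.

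Pelo was itself a member, with a 233-nt 5′ UTR. Its coding region held 24 (KO 1), 21 (KO 2), 101 (WT 1) and 61 (WT 2) footprints, which fell by 1.65 (log2, SE 0.25, edgeR adjusted p = 0.000807). Its 5′ UTR held 2, 3, 4 and 2 footprints, too few for a test of the ratio.

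Which members changed their ratio more than the typical transcript was asked with edgeR's test of genotype by region, each region scaled on its own by trimmed means (TMM). This sets the typical transcript to no change and so removes a shift common to all. Of 1159 members with enough counts (at least 10 in at least 2 libraries in both regions), 5 had a higher and 9 a lower ratio in KO at an adjusted p of 0.05. Over all 1607 transcripts tested 0.56% were higher and 0.809% lower, 1.37% in all, so the members' share of 1.21% was near the background. The median change was 0.00465 over the members and 0.04 over all tested, on the log2 scale. With scaling by library totals alone the split was 5 higher and 15 lower. Of the 1159, 181 reached the minimum of 5′ UTR counts through KO libraries alone and 55 through WT libraries alone, so such a member had to have more 5′ UTR counts there. Among the 14 called, these were Hal, Slc5a3 and Sdr42e1 through KO and Tnrc6b through WT, and for each of them 2 of the 4 fits without 1 library could be run. With no filter on low counts their log2 changes were 2.44, 2.34, 2.26 and -2.73 (edgeR adjusted p of 0.00512, 0.0272, 0.0272 and 0.011).

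When both regions were scaled by the coding factors instead, the common shift was kept, and 322 members were higher and 10 lower. Over all tested the shares were 29.6% and 0.871%, and the median log2 change was 0.74 over the members and 0.76 over all. Without any scaling, the ratio was higher in both KO libraries than in both WT libraries for 727 of the 1159 (63.8% of all tested) and lower in both for 55 (4.48% of all tested). The members' shares again lay near the background.

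**Figure D4:**
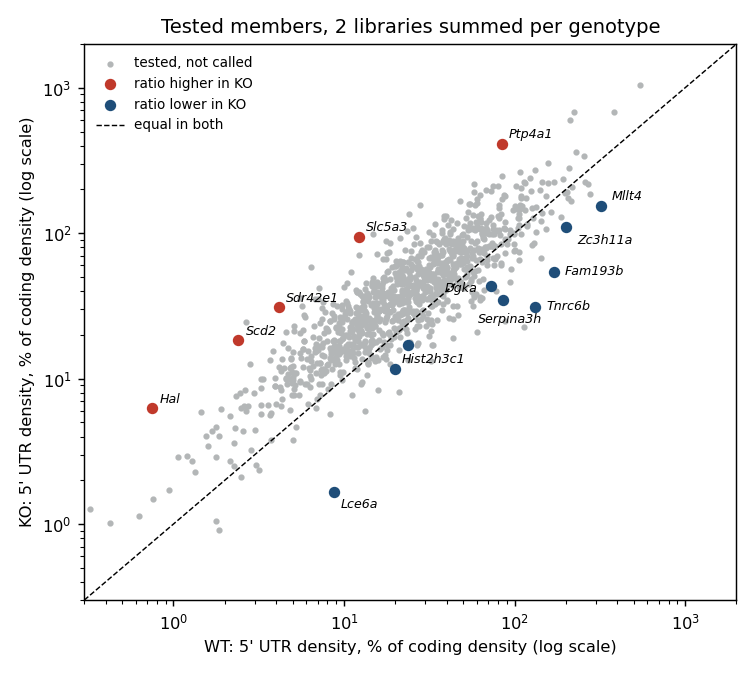
Each point is 1 of the 1159 tested members, with the density ratio in WT (horizontal) and KO (vertical), 2 libraries summed per genotype, both on log scales. Of them, 994 lie above the dashed line of equal ratios. No such count was taken for shorter 5′ UTRs, whose summed ratio was also higher in KO. The 5 called higher relative to the typical transcript are red and the 9 called lower are blue, with names beside the 13 that the text describes.

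The 5 members called higher encode enzymes and a transporter. Scd2, a stearoyl-CoA desaturase of lipid synthesis, had 216 and 171 5′ UTR footprints in the KO libraries against 77 and 46 in WT, while its coding footprints were 1490, 1548, 4206 and 3158. Its density ratio was 20.9% and 15.9% in KO against 2.64% and 2.10% in WT, and the ratio rose by 2.21 (log2, SE 0.24, edgeR adjusted p = 0.000728). The regions moved in opposite directions, with 5′ UTR footprints up by 1.06 (adjusted p = 0.00458, lost without WT 2 at 0.90 with 0.1) and coding footprints down by 1.09 (adjusted p = 9.51e-05).

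Hal, histidine ammonia-lyase, which makes urocanic acid in the epidermis, had 42 and 32 5′ UTR footprints in the KO libraries against 4 and 3 in WT, beside 2013 to 3578 coding footprints. Its density ratio was 6.29% and 6.25% against 0.719% and 0.799%, a rise of 2.34 (log2, SE 0.44, edgeR adjusted p = 0.0259). Slc5a3, a myo-inositol transporter, had 17, 14, 8 and 6 5′ UTR footprints and 83, 57, 251 and 240 coding footprints. Its ratio was 87.7% and 105% against 13.6% and 10.7%, a rise of 2.24 (log2, SE 0.45, adjusted p = 0.0259) with coding footprints down by 1.65 (SE 0.19, adjusted p = 0.000199) and a 5′ UTR change of 0.53 (adjusted p = 0.468). RefSeq lists Mrps6 beside or over Slc5a3, and its part in the counts was not tested.

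Sdr42e1, a short-chain dehydrogenase, rose by 2.16 (log2, SE 0.47, edgeR adjusted p = 0.0419) on 24, 32, 4 and 6 5′ UTR footprints. The call was lost without WT 1 (1.63, adjusted p = 0.092). Ptp4a1, a phosphatase with an upstream frame, had 136, 137, 74 and 54 5′ UTR footprints above only 19, 25, 47 and 54 coding footprints, and a density ratio of 476%, 364%, 105% and 66.5%. Its rise of 1.55 (SE 0.35, edgeR adjusted p = 0.0478) was lost without KO 1 (1.38, 0.19) or WT 2 (1.26, 0.078).

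Of the 9 members called lower, 8 are described, among them regulators of RNA and a histone. Fam193b had 8 and 13 5′ UTR footprints in the KO libraries against 52 and 36 in WT in a 1600-nt 5′ UTR, beside 24, 31, 39 and 35 coding footprints, and its ratio fell by 2.39 (log2, SE 0.42, edgeR adjusted p = 0.0159). Serpina3h, of the serine protease inhibitors, had 64, 56, 246 and 215, and its ratio fell by 1.99 (log2, SE 0.25, adjusted p = 0.00183). RefSeq calls it a transcribed pseudogene, its family has near-identical copies, and its values are uncertain. Hist2h3c1 fell by 1.48 (log2, SE 0.24, adjusted p = 0.0131), with coding footprints higher in KO (log2 1.61) while the 5′ UTR change was 0.07 with an adjusted p of 0.901.

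Tnrc6b, a scaffold of microRNA silencing, had 1, 7, 22 and 19 5′ UTR footprints and 243, 241, 325 and 262 coding footprints, and its density ratio was 7.79%, 55.0%, 128% and 137%. Its ratio fell by 2.83 (log2, SE 0.56, edgeR adjusted p = 0.0259), and the change was -2.0 without KO 1, where the call was lost (adjusted p = 0.16), and -4.64 without KO 2. Lce6a, of the late cornified envelope, fell by 3.11 (log2, SE 0.70, adjusted p = 0.0474) on 8, 11, 10 and 3 5′ UTR footprints, while its coding footprints rose from 32 and 43 in WT to 327 and 247 in KO. Its change was -3.92 without WT 2. Zc3h11a, a zinc finger protein of messenger RNA export, had 23 and 36 against 76 and 55 5′ UTR footprints, and its ratio fell by 1.62 (log2, SE 0.31, adjusted p = 0.0259). RefSeq lists Zbed6 beside or over Zc3h11a. Other named members have such neighbours too, among them Dgka (Pmel) and Atf5 (Il4i1b and Nup62). The part of these neighbours in the counts was not tested.

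Mllt4, encoding the junction protein afadin (Afdn in RefSeq), had 28 and 31 5′ UTR footprints in the KO libraries against 117 and 103 in WT, and its ratio fell by 1.81 (log2, SE 0.37, edgeR adjusted p = 0.0259). Its listed coding length is 405 nt, a short model for so large a protein, and whether its 5′ UTR is coding in other transcripts was not tested. Dgka, a diacylglycerol kinase, fell by 1.5 (SE 0.32, adjusted p = 0.0388) on 21, 34, 49 and 38 5′ UTR footprints. Without KO 1 the calls of Mllt4, Zc3h11a and Dgka were lost (log2 -1.74, -1.34 and -1.07, with adjusted p of 0.077, 0.19 and 0.32), and without KO 2 that of Mllt4 (-1.71, 0.071). With the coding factors for both regions, that of Dgka was lost (-0.76, adjusted p = 0.0943).

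Taken region by region, 5′ UTR footprints rose in 96 and fell in 157 of the 1159 members tested (11.5% and 12.2% of all 1607), with a median log2 change of -0.13 over the members and -0.01 over all. Each region was scaled on its own, so these changes are relative to the typical 5′ UTR or the typical coding region. A shift common to all 5′ UTRs is thus removed. The same holds for the log2 changes of single genes in other paragraphs, so a gene's 5′ UTR and coding changes are on different scales. Coding footprints rose in 532 and fell in 824 of 3533 members (20% and 19.2% of all 10875 tested), with medians of -0.13 and -0.02. Of the 96, 41 reached the count minimum through KO libraries alone, and of the 157, 50 through WT libraries alone. The 5′ UTR split was 101 higher and 97 lower with no filter on low counts, 27 and 29 with at least 20 counts in every library, 21 and 26 with the replicate block, 53 and 53 without KO 1, 51 and 59 without KO 2, and 80 and 183 with scaling by library totals. Scaling by library totals alone gave 349 higher and 1184 lower in coding regions, with the median over all at -0.20. Among the 96 with more 5′ UTR footprints, coding footprints also rose in 81, fell in 1 and were not called in 14. Among the 157 with fewer, coding footprints fell in 102, rose in 2 and were not called in 53. Both regions of a transcript share its RNA, so this agreement is a description.

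The members were then read in 10 lists of genes. In the ratio test with each region scaled on its own, no list had a called member, where 1.37% of all transcripts tested were called. For the counts that follow, the shares over all tested were 11.5% higher and 12.2% lower in 5′ UTRs. In coding regions they were 20% higher and 19.2% lower. The lists are small, and no list was tested against these shares. Genes known to be controlled by upstream frames had the highest list medians. Of 24 symbols 18 were members, with median density ratios of 66.8%, 73.2%, 40.5% and 34% against 19.9%, 24.1%, 14.4% and 13.3% over all members, and 5 were denser in the 5′ UTR in all 4 libraries. Their 5′ UTR footprints rose in 2 (Atf4 and Ifrd1) and fell in 1 of 12 tested, with a median log2 change of 0.33. Their coding footprints rose in 6 and fell in 3 of 18. Hr, the hairless corepressor whose upstream frame is mutated in a hereditary hair loss, had 245 and 270 5′ UTR footprints in the KO libraries against 154 and 121 in WT, a density ratio of 179%, 187%, 85.4% and 89.7%. Eif4g2, an initiation factor relative that starts at a GUG, had 172, 163, 103 and 67, and 103%, 105%, 77.3% and 59.3%.

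**Figure D5:**
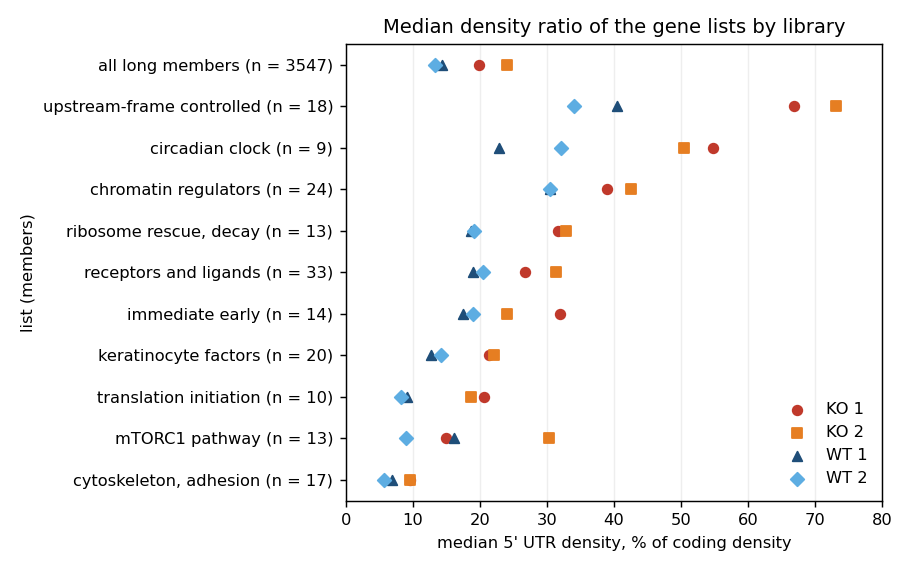
Points give, for all members and for each list, the median 5′ UTR density as a percentage of coding density in each library. The upstream-frame list has the highest median in each library (34% to 73.2%), cytoskeleton and adhesion genes the lowest (5.63% to 9.52%), and KO and WT overlap only for the mTORC1 list.

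Immediate early genes, which answer growth and stress signals, gave 14 members with medians of 32.0%, 24.1%, 17.5% and 18.9%. Their 5′ UTR footprints rose in 4 and fell in 0 of 12 tested, and their coding footprints rose in 7 and fell in 0 of 14, with median log2 changes of 0.53 and 0.68. Jun had 153, 209, 77 and 69 5′ UTR footprints in 945 nt, a density ratio of 34.8%, 38.9%, 17.5% and 17.3%. Btg1, an antiproliferative gene whose start window is printed above, had 161, 137, 109 and 52, and 51.0%, 49.6%, 22.2% and 18.8%. Junb had 75, 98, 46 and 55 and a ratio of 37.3%, 31.0%, 28.8% and 44.8%, in which the genotypes overlapped, while its coding footprints rose by 1.06 (log2, edgeR adjusted p = 0.00337).

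Keratinocyte transcription factors gave 20 members with medians of 21.3%, 22.1%, 12.7% and 14.2%. In 5′ UTRs 1 rose and 0 fell of 13 tested, and in coding regions 5 rose and 4 fell of 20. Gata3, a factor of hair follicle and epidermal differentiation, had 102, 39, 69 and 55 5′ UTR footprints, and its ratio was 45.2% and 21.0% in KO and 8.93% and 12.8% in WT while its coding footprints fell by 1.34 (log2, SE 0.16, edgeR adjusted p = 0.00025). Klf4, needed for barrier formation, had 16.6%, 18.6%, 12.8% and 18.9%, and the genotypes overlapped. Zfp750, a differentiation factor, had 51.4%, 63.0%, 33.1% and 20.8%.

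Growth factor receptors and ligands gave 33 members with medians of 26.7%, 31.3%, 18.9% and 20.5%. Their 5′ UTR footprints rose in 1 and fell in 1 of 23, and their coding footprints rose in 3 and fell in 11 of 33, with a median log2 change of -0.24. Fgfr2, a receptor of keratinocytes, fell in both regions, by log2 1.33 in the 5′ UTR (edgeR adjusted p = 0.000708) and 1.24 in the coding region (0.000457). Fgfr1, its relative in the dermis, had 43, 46, 34 and 35 5′ UTR footprints and fell by log2 0.81 in the coding region (edgeR adjusted p = 0.00257). Its density ratio was 76.9%, 84.1%, 30.9% and 32.5%. The edgeR change of that ratio relative to the typical transcript, 0.61 (SE 0.30), had an adjusted p of 0.304. Efnb1, a ligand of Eph receptors, had 55.8%, 54.9%, 25.8% and 33.6%.

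Chromatin regulators gave 24 members with medians of 39.0%, 42.5%, 30.5% and 30.4%. Of 9 tested in the 5′ UTR 0 rose and 2 fell, and of 24 in the coding region 1 rose and 8 fell. Kmt2e, of the MLL family, had 41, 47, 52 and 38 5′ UTR footprints and a density ratio of 243%, 236%, 126% and 121%, with coding footprints down by log2 0.80 (edgeR adjusted p = 0.00203). Brd2, a bromodomain protein, had 40.6%, 43.1%, 32.5% and 30.3% over 1528 nt, and Kdm2a, a histone demethylase, 46.3%, 49.6%, 20.2% and 22.2%.

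The mTORC1 pathway, which couples growth signals to translation, gave 13 members with medians of 14.9%, 30.3%, 16.2% and 8.98%, and the genotypes overlapped. In 5′ UTRs 0 rose and 1 fell of 5, and in coding regions 0 rose and 5 fell of 13. Pik3r1, a regulatory subunit of PI3-kinase, fell by 1.74 (log2) in the 5′ UTR (edgeR adjusted p = 4.84e-05) and 1.15 in the coding region (0.000177), and its ratio of 41.3%, 57.3%, 45.9% and 40.3% overlapped. Rraga, a GTPase that recruits mTORC1, had 14.9%, 18.0%, 7.82% and 7.01%.

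Ribosome rescue and messenger RNA decay, the pathway of Pelota, gave 13 members with medians of 31.7%, 32.8%, 18.7% and 19.1%. No 5′ UTR was called among 6 tested, and coding footprints rose in 5 and fell in 1 (Pelo) of 13. Ddx6, a helicase of decay, had 67, 50, 40 and 33 5′ UTR footprints and 37.0%, 32.8%, 19.9% and 18.6%. Cnot1, the scaffold of the deadenylase complex, had 91.0%, 71.6%, 88.9% and 51.4%, and its subunit Cnot6, whose start window is printed above, 66.6%, 83.7%, 78.4% and 41.7%, and both overlapped.

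Translation initiation factors gave 10 members with medians of 20.6%, 18.7%, 9.14% and 8.22%. In 5′ UTRs 3 rose and 0 fell of 4, and in coding regions 5 rose and 1 fell of 10. Pabpc1, the poly(A)-binding protein, had 79 and 115 5′ UTR footprints in the KO libraries against 23 and 16 in WT, and rose by 1.69 (log2, SE 0.29, edgeR adjusted p = 0.000102) in the 5′ UTR and 1.19 (SE 0.12, 7.62e-05) in the coding region. Eif6, which keeps ribosomal subunits apart, rose by 1.12 (adjusted p = 0.00263) and 1.24 (0.000141), and Eif1a, of start codon selection, by 1.64 (0.00646) and 1.36 (0.000248). The 5′ UTR call of Eif6 was lost without WT 1 (0.97), and that of Eif1a without KO 1 (1.45) or WT 2 (1.25). Both were also lost with DESeq2 (1.11 and 1.67, adjusted p of 0.0698 and 0.143). The same held with the replicate block (1.12 and 1.70, edgeR adjusted p of 0.062 and 0.0572).

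Circadian clock genes gave 9 members with medians of 54.8%, 50.5%, 22.8% and 32.1%. Of 4 tested in the 5′ UTR 0 rose and 1 fell, and of 9 in the coding region 2 rose and 4 fell. Nr1d1, the repressor REV-ERBα, had 29, 19, 79 and 77 5′ UTR footprints and 67, 65, 468 and 368 coding footprints. It fell by 2.32 (log2, SE 0.30, edgeR adjusted p = 1.19e-06) in the 5′ UTR and 2.48 (SE 0.14, 6.34e-06) in the coding region, and its density ratio was 124%, 83.9%, 48.4% and 60.1%. Arntl, its target BMAL1, had 54.8%, 47.4%, 31.7% and 33.8%, and Clock 76.0%, 97.5%, 22.8% and 51.5%. The time of day of sampling is not given in the labels.

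Cytoskeleton and adhesion genes gave 17 members with the lowest medians, 9.50%, 9.52%, 6.93% and 5.63%. In 5′ UTRs 1 rose and 1 fell of 10, and in coding regions 5 rose and 3 fell of 17. Dsp, desmoplakin of the desmosome, had 295, 372, 128 and 101 5′ UTR footprints beside 25457 to 40615 coding footprints, and a ratio of 21.6%, 30.0%, 11.4% and 11.8%. Its 5′ UTR footprints rose by 0.92 (log2, SE 0.27, edgeR adjusted p = 0.0147). The call was lost with DESeq2 (0.90, adjusted p = 0.0677) and with the replicate block (0.91, edgeR adjusted p = 0.0776). It was also lost without WT 1 (0.77) or WT 2 (0.94). Marcks, an actin-linked membrane protein, had 44.3%, 34.8%, 12.3% and 17.4%, and Ctnnd1, p120-catenin of adherens junctions, 33.7%, 31.5%, 21.2% and 16.7%.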

How the data were processed

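Ribosome footprints of primary mouse epidermis, 2 KO and 2 WT libraries, were taken from the deposited table of raw counts per 5′ UTR, coding region and 3′ UTR of each transcript, with region lengths in nt, on mm9 gene annotations per the file headers. Reads were handled with CASAVA 1.8, Bowtie2 2.2.6 and TopHat2 2.0.10 per the submitters' processing notes, which name no role. The read-me of the deposited counts describes footprints of 28 to 34 nt, but a second table described as 20 to 22 nt is byte-identical, so which length class was counted cannot be told apart. The 3 regions leave 71 nt of each transcript uncounted, which can include footprints at starts and stops, and a value is listed only where coding density exceeds 0.01 footprints per nt. Over the transcripts tested, counts per library were 4164943 to 5192439 in coding regions but 28796 to 56494 in 5′ UTRs, which limits the precision of 5′ UTR values.

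Counts were tested with edgeR 4.0.16 (R 4.3.3) quasi-likelihood fits over all transcripts that reached 10 counts in 2 or more libraries, with TMM scaling and Benjamini-Hochberg adjustment at 0.05. The ratio test was the genotype by region interaction with each library as a factor. The scripts were tested on simulated data. DESeq2 1.42.0, limma 3.58.1, other scalings, filters, length limits and left-out libraries were alternatives. Sums and medians per library were compared with exact permutation tests. Named were Pelo; the 8 highest and 4 lowest density ratios among members with at least 20 5′ UTR footprints in every library; the 6 members with the most 5′ UTR footprints; up to 8 rises and 8 falls of the ratio; the 2 longest 5′ UTRs; and up to 3 per list. The members and the 10 gene and 8 marker lists were chosen with earlier results of these data known. Start sequences came from RefSeq, on GRCm38.p6. Some members are not reported here.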

Additional observations from a re-analysis of the deposited data

How the results depend on the processing

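The summed and median density ratios kept KO above WT under all alternatives run. Of the marker lists, these alternatives took in only keratinocytes and fibroblasts. The difference of 1.66 5′ UTR footprints per 100 coding footprints ranged from 1.40 to 1.93 with 1 library left out. Otherwise it ranged from 0.355 (within keratinocyte markers, a lower level in both genotypes) to 2.51. The median log2 difference of 0.67 ranged from 0.53 to 0.80. Members whose ratio changed numbered 14; they were 4 with DESeq2 (71 at an unadjusted p under 0.05), 332 with coding factors for both regions, 0 with limma (163 unadjusted), 0 with the replicate block (171 unadjusted) and 7 to 35 with 1 library left out (7 without KO 1, 35 without WT 1, 26 without WT 2). Members whose 5′ UTR footprints changed numbered 253; they were 56 with at least 20 counts in every library, 57 with DESeq2, 47 with the replicate block and 106 to 142 with 1 library left out. Coding changes numbered 1356; they were 813 with DESeq2, 1398 with the replicate block and 1030 to 1223 with 1 library left out. The stricter filter tests fewer members and the left-out fits fewer libraries; the cause of the other differences was not tested. A left-out library leaves 1 in its genotype, which is assumed to vary like the others. Same-numbered libraries did not deviate together across genes (correlations of -0.00892 for the ratio, 0.0191 for 5′ UTR and 0.0271 for coding counts). This cannot exclude that they were handled as pairs, on which the labels are silent. With the replicate block the summed difference stayed 1.66 (pairs 1.31 and 2.02) and the median 0.67. Of 671 alternative values for named members called in a test, 560 kept their call and direction, 111 lost the call and 0 reversed; all 14 ratio calls were lost under limma and the block. Few 5′ UTR footprints per member and 2 libraries per genotype limit these tests, and 2388 members were not tested for the ratio.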
